A study of Homo sapiens with 3 samples.

Results

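Replication origin calls were compared between human chromosome 19, known as the most gene-rich autosome for its size, and chromosome 18, known as a gene-poor one. The members were all EPIC2 regions and all MACS2 summits of 3 replicates on these chromosomes, outside 3 intervals of chromosome 19 that hold clusters of zinc finger genes (20000000 to 24600000, 37000000 to 38600000 and 52500000 to 58700000, hg19). They numbered 38437 calls, 15593 regions and 22844 summits, of 691274 calls in all. The data came from short nascent strand sequencing (SNS-seq) of HCT116 cells that received no treatment, an established line of human colorectal carcinoma, and the 3 replicates formed a single group. The series set out to map active origins in these cells, and the comparison made here is between chromosomes within each replicate. The methods describe the replicates as separate experiments, and the labels give no more than their numbers, so the spread between them is that of these 3 libraries. How deeply each library was sequenced is unknown, since the lists give positions and scores without read numbers.

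DNA replication starts at origins, where the origin recognition complex loads the replicative helicase and where some of the loaded sites fire in S phase. Each start leaves short nascent strands that begin with an RNA primer, and SNS-seq enriches them by size and by digesting unprimed DNA with lambda exonuclease. In mammalian cells origins are known to concentrate at promoters and in early-replicating, gene-rich chromatin, while gene-poor chromatin tends to replicate late. Chromosomes 19 and 18 stand near the ends of that range. Gene content was not measured here, since the calls are in hg19 and no annotation of that build was used.

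EPIC2 joins neighbouring enriched steps of 200 bases into diffuse regions, and MACS2 gives single-base summits of narrow peaks. A region in which MACS2 placed 1 or more summits in that replicate is called a common region. Density was taken per Mb of span, the 1 Mb windows with a call of either caller in any replicate. The span was 44.3 Mb on chromosome 19 after the 3 intervals (12.4 Mb) were taken out, and 76.0 Mb on chromosome 18, so the chromosomes differed in analysed length. The whole lists differed in size between replicates, from 44482 to 124492 EPIC2 regions and from 63077 to 218227 summits, and replicate 2 was the shortest of both.

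Chromosome 19 was much more densely filled with EPIC2 regions and with common regions than chromosome 18, whereas the density of summits that lay outside every EPIC2 region differed by less than the replicate spread. Chromosome 19 held 5385, 2479 and 3399 EPIC2 regions in replicates 1, 2 and 3, and chromosome 18 held 2332, 736 and 1262. Per Mb this was 121.6, 56.0 and 76.7 on chromosome 19 against 30.7, 9.68 and 16.6 on chromosome 18. The lowest replicate of chromosome 19 thus lay above the highest of chromosome 18. Within replicates the density was 4.79 ± 0.920 (SD, n = 3) times as high on chromosome 19.

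Common regions numbered 3988, 1572 and 2186 on chromosome 19 and 1989, 452 and 939 on chromosome 18. Their density was 90.03, 35.5 and 49.4 per Mb on chromosome 19. On chromosome 18 it was 26.2, 5.95 and 12.4 per Mb, again without overlap between the chromosomes. The ratio was 3.44, 5.97 and 3.995, a mean of 4.47 ± 1.33 (SD, n = 3), so its size varied between replicates while its direction did not. With the upper 50% of EPIC2 scores of each replicate the mean log2 ratio rose from 2.12 to 2.82, and with equal numbers of EPIC2 regions per replicate (the 44482 with the highest scores) to 2.79. For all EPIC2 regions it rose from 2.24 to 2.95 and 2.90 in the same order. The median score percentile of EPIC2 regions was 69.7 on chromosome 19 and 42.2 on chromosome 18. Filters on the score thus keep a larger share of the regions of chromosome 19, and the rise follows by construction.

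Each replicate gives 1 ratio, and an exact sign-flip permutation test over 3 replicates cannot give a two-sided p below 0.25. That value was reached by the density of EPIC2 regions, common regions and summits and by the width, spacing, summits per region and sharing of common regions, all of which had the same direction in 3 of 3 replicates. The comparisons are therefore described by their values and the spread between replicates.

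Summits showed a smaller contrast than regions. Their density was 148, 57.2 and 84.8 per Mb on chromosome 19 and 65.4, 18.5 and 47.6 per Mb on chromosome 18. The ranges overlapped, with replicate 2 of chromosome 19 below replicate 1 of chromosome 18, but chromosome 19 was denser within every replicate, by a factor of 2.38 ± 0.659 (SD, n = 3). Most summits of chromosome 19 lay within EPIC2 regions. On chromosome 19, 87.4%, 72.8% and 77.0% of summits fell in a region of their own replicate, against 47.2%, 34.6% and 30.9% on chromosome 18.

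Summits outside EPIC2 regions were counted per Mb of the span that no region of that replicate covered. Chromosome 19 had 31.7, 19.01 and 34.8 such summits per Mb and chromosome 18 had 36.3, 12.4 and 34.9. Chromosome 19 was lower in replicate 1, higher in replicate 2 and nearly level in replicate 3. The difference of 0.645 ± 5.62 per Mb (SD, n = 3) was smaller than the spread between replicates (exact sign-flip permutation test, two-sided p = 1). These summits had lower MACS2 scores than those in regions. Their median score percentile within a replicate was 34.0 ± 4.96 (SD, n = 3) on chromosome 19 and 37.6 ± 7.11 on chromosome 18, against 61.1 ± 17.1 and 69.5 ± 9.82 inside regions.

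**Figure D1:**
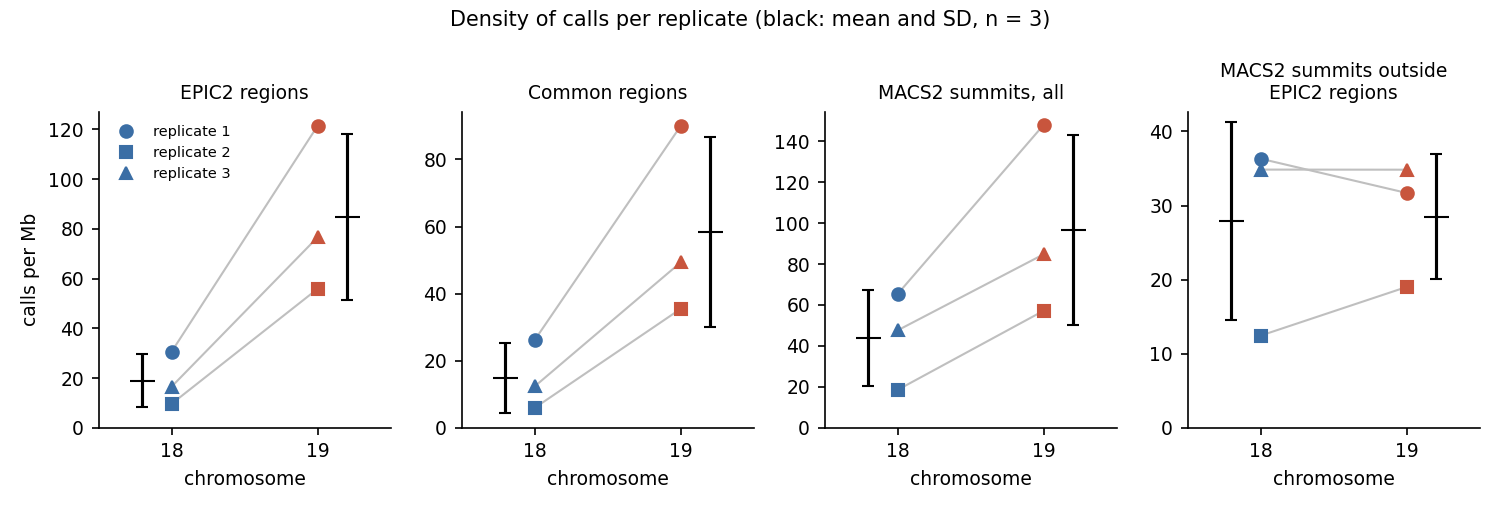
Calls per Mb (vertical axes, each from 0) on chromosomes 18 and 19 for EPIC2 regions, common regions, all MACS2 summits and summits outside EPIC2 regions; each marker is 1 replicate, grey lines join the values of a replicate, and black bars give the mean and SD of 3. All lines rise from 18 to 19 in the first 3 panels, and in the last they fall for replicate 1 (36.3 to 31.7), rise for replicate 2 (12.4 to 19.01) and stay nearly level for replicate 3.

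The share of the span covered by EPIC2 regions differed more than their number. Regions covered 41.1%, 18.3% and 44.0% of chromosome 19 and 4.998%, 2.55% and 5.60% of chromosome 18. The ratio of 7.75 ± 0.520 (SD, n = 3) varied less between replicates than that of any density given above. EPIC2 scores were also higher on chromosome 19, with a median percentile among the regions of a replicate of 69.7 ± 3.93 (SD, n = 3) against 42.2 ± 4.32 on chromosome 18. The part of the score in the other differences was not tested.

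Not every EPIC2 region held a summit, and in this the direction differed between replicates. On chromosome 19, 74.1%, 63.4% and 64.3% of EPIC2 regions held a summit of their own replicate, and on chromosome 18 85.3%, 61.4% and 74.4%. Over all chromosomes the shares were 81.7%, 56.8% and 71.7%, so chromosome 19 lay below the whole list in replicates 1 and 3 and above it in replicate 2. The difference between the chromosomes of -6.44 ± 7.33 percentage points (SD, n = 3) was within the spread (exact sign-flip permutation test, two-sided p = 0.5). This rested on replicate 2, without which the difference was -10.7 ± 0.807 points (n = 2), lower on chromosome 19 in both remaining replicates. Regions without a summit were denser on chromosome 19 in every replicate, at 31.5, 20.5 and 27.4 per Mb against 4.51, 3.74 and 4.25.

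Common regions were wider on chromosome 19. Their median width was 2800, 2800 and 4600 bases on chromosome 19 and 1400, 2000 and 3000 bases on chromosome 18. The ranges overlapped because replicate 3 had wider regions on both chromosomes, and within replicates chromosome 19 was wider by a factor of 2.00, 1.40 and 1.53. The contrast was stronger in the upper tail. Regions over 10 kb made up 4.51%, 1.21% and 15.7% of common regions on chromosome 19 and 0.0503%, 0.221% and 1.06% on chromosome 18, where they numbered 1, 1 and 10. The widest reached 32200, 24800 and 38800 bases on chromosome 19 and 13000, 10400 and 14600 on chromosome 18. Narrow regions showed the opposite: those up to 1 kb were 8.82% ± 6.63 (SD, n = 3) of common regions on chromosome 19 and 22.9% ± 18 on chromosome 18.

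**Figure D2:**
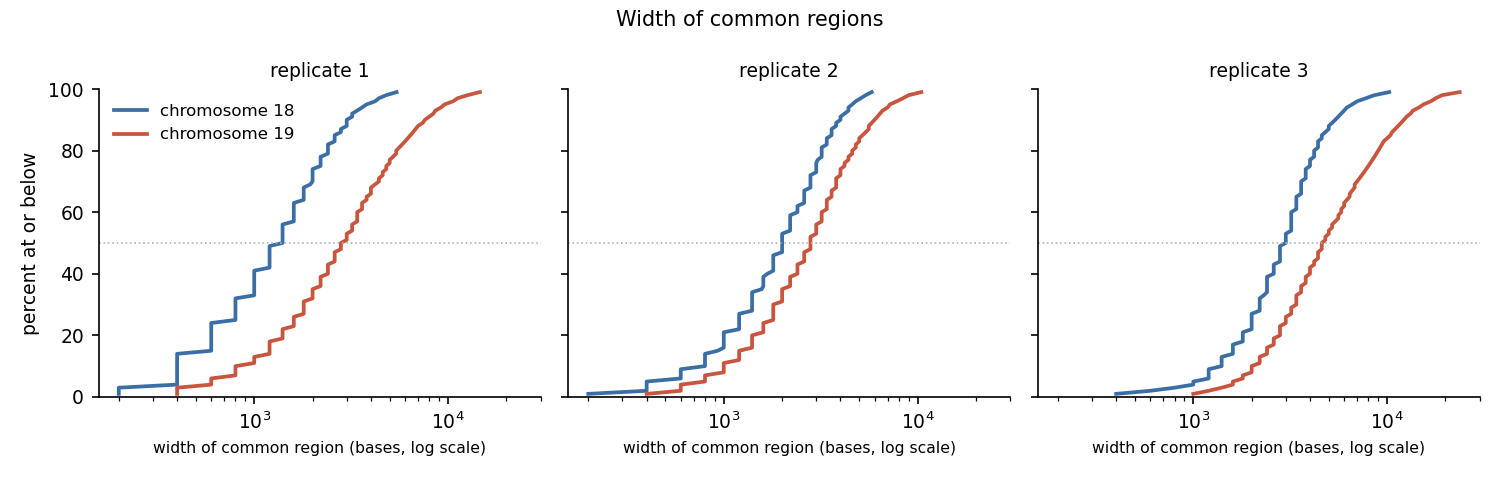
Percent of common regions (vertical axis) at or below a given width in bases (horizontal axis, log scale) for chromosomes 18 and 19, in 1 panel per replicate; the dotted line marks 50%. The curve of chromosome 19 lies to the right in each panel, with medians of 2800, 2800 and 4600 bases against 1400, 2000 and 3000, and the curves step because EPIC2 works in steps of 200 bases.

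Neighbouring common regions stood closer together on chromosome 19. The median distance from the end of one to the start of the next was 3800, 11600 and 6200 bases on chromosome 19. On chromosome 18 it was 13400, 71100 and 18000 bases, and the longest of chromosome 19 was shorter than the shortest of chromosome 18. The mean log2 ratio was -1.99 ± 0.56 (SD, n = 3), and distances from centre to centre, which include the width of the regions, gave -1.29 ± 0.87. Distances under 5 kb made up 59.1%, 24.9% and 42.9% of those on chromosome 19 and 21.9%, 4.0% and 18.7% on chromosome 18.

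Long stretches without a common region took a larger share of chromosome 18 than of chromosome 19 in every replicate. Distances over 100 kb added up to 48.3%, 81.2% and 68.9% of the span of chromosome 18 and to 6.15%, 24.55% and 14.99% of that of chromosome 19. The longest distance on chromosome 18 was 1151800, 2660400 and 4252000 bases, and on chromosome 19 it was 622800, 694600 and 869800 bases. The gap at each centromere, 3.10 Mb on chromosome 18 and 3.13 Mb on chromosome 19 without any call, was not counted among them.

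**Figure D3:**
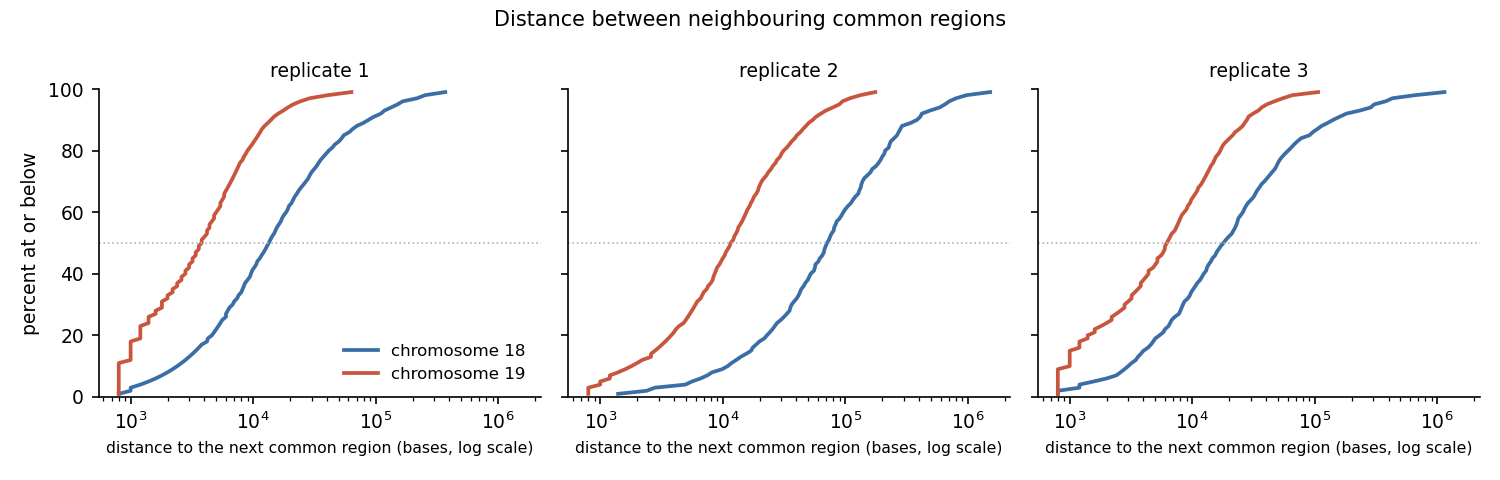
Percent of distances (vertical axis) at or below a given distance in bases from a common region to the next (horizontal axis, log scale) for chromosomes 18 and 19, in 1 panel per replicate; the dotted line marks 50%. Chromosome 19 lies to the left, with medians of 3800, 11600 and 6200 bases against 13400, 71100 and 18000. Only at the lowest percentiles of replicates 1 and 3 do the curves meet, at 800 bases.

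A common region held slightly more summits on chromosome 19 than on chromosome 18, and fewer per kb of its length. The mean number of summits was 1.44, 1.17 and 1.32 on chromosome 19 and 1.18, 1.08 and 1.19 on chromosome 18. The ratio within replicates was 1.14 ± 0.0693 (SD, n = 3). Regions with a single summit were 67.4%, 85.0% and 73.8% on chromosome 19 and 83.1%, 92.0% and 81.8% on chromosome 18. The most summits in 1 region were 8, 6 and 7 on chromosome 19 and 4, 2 and 3 on chromosome 18. Per kb of common region the direction turned, with 0.387, 0.363 and 0.213 summits on chromosome 19 and 0.745, 0.487 and 0.369 on chromosome 18. A common region holds at least 1 summit by definition and most held only 1, so this value largely follows the width.

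Among regions of similar width the numbers of summits came close together. Regions up to 1 kb held 1.01 ± 0.00948 summits (SD, n = 3) on chromosome 19 and 1.01 ± 0.0112 on chromosome 18. Those over 1 and up to 2 kb held 1.10 ± 0.0288 and 1.12 ± 0.0692, and those over 2 and up to 5 kb held 1.26 ± 0.122 and 1.24 ± 0.150. Up to this width the chromosomes differed by less than the SD on chromosome 18. Regions over 5 and up to 10 kb held 1.81, 1.36 and 1.33 summits on chromosome 19 and 1.61, 1.15 and 1.31 on chromosome 18, higher on chromosome 19 in 3 of 3 replicates. Over 10 kb they held 3.01, 2.21 and 1.84 against 2.0, 2.0 and 1.8, the last from few regions.

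Whether a common region was found again was asked by an overlap of at least 1 base with a common region of another replicate. This was true of 70.2%, 91.3% and 81.6% of the common regions of chromosome 19 and of 38.7%, 73.5% and 52.9% of those of chromosome 18. The shares over all chromosomes were 48.4%, 79.0% and 60.9%, above chromosome 18 and below chromosome 19 in every replicate. The difference was 31.5, 17.8 and 28.6 percentage points, a mean of 26.0 ± 7.22 (SD, n = 3). Replicate 2, with the shortest list, had the highest share on both chromosomes. Common regions covered 33.4%, 11.5% and 30.6% of the span of chromosome 19 and 4.14%, 1.32% and 3.99% of that of chromosome 18. The part of this coverage in the difference was not tested.

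The size of this difference depended on what counted as found again. When the overlap had to cover 50% of both regions, the shares were 30.4%, 41.9% and 36.7% on chromosome 19 and 19.5%, 44.0% and 25.3% on chromosome 18, and the difference of 6.72 ± 7.70 points (SD, n = 3) was within the spread and turned its sign in replicate 2. Taken by summits, 32.2%, 59.1% and 24.9% of those on chromosome 19 had a summit of another replicate within 250 bases. On chromosome 18 the shares were 29.8%, 53.5% and 27.2%, and the difference of 1.92 ± 3.97 points was also within the spread (exact sign-flip permutation test, two-sided p = 0.5). The chromosomes thus differed in the sharing of regions by 1 base and not beyond the replicate spread in the sharing of positions.

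Wider regions were shared more often on both chromosomes. On chromosome 18 the share rose from 43.6% ± 21.1 (SD, n = 3) up to 1 kb to 50.1% ± 19.5, 63.3% ± 11.7 and 77.9% ± 5.79 in the next classes, and on chromosome 19 from 57.4% ± 18.3 to 68.5% ± 14.1, 80.9% ± 12.5 and 92.7% ± 4.88. All of the 1, 1 and 10 regions over 10 kb on chromosome 18 were shared, as were 98.9% ± 0.985 of those on chromosome 19. With the 5 width classes given equal weight, the difference between the chromosomes fell from 26.0 to 12.7 ± 1.37 points (SD, n = 3) and was still positive in 3 of 3 replicates.

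**Figure D4:**
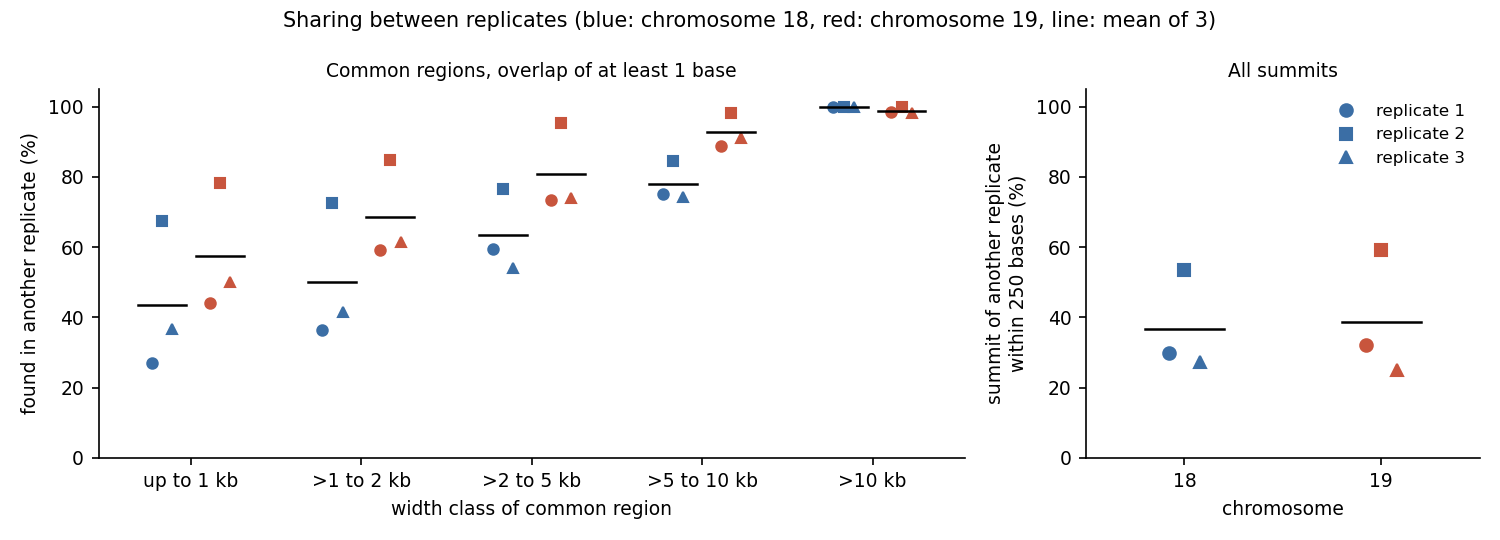
Left, percent of common regions that overlap a common region of another replicate (vertical axis) by width class, and right, percent of all summits with a summit of another replicate within 250 bases; blue is chromosome 18, red is chromosome 19, each marker is 1 replicate and the line is the mean of 3. Red lies above blue in the 4 classes up to 10 kb in each replicate, while at right the means are 36.8% and 38.7%.

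The same contrast appeared in each pair of replicates. In 3 pairs taken in both directions, the share of common regions found in the other replicate was higher on chromosome 19 in 6 of 6 comparisons, from 35.2% to 87.6% against 9.37% to 70.6%. For summits with a summit of the other replicate within 250 bases it was higher in 3 of 6, from 6.34% to 56.4% against 5.53% to 49.4%. Stretches within 250 bases of a summit of the other replicate covered 2.87% to 7.41% of the span of chromosome 19 and 0.929% to 3.28% of that of chromosome 18. The share of summits in them divided by this covered share was 2.21 to 7.61 on chromosome 19 and 5.95 to 15.1 on chromosome 18. It was lower on chromosome 19 in 3 of 3 pairs, and the directions of a pair gave nearly the same ratio. The share of summits in EPIC2 regions of the other replicate was also divided by the share these regions covered. That ratio was 1.26 to 2.19 on chromosome 19 and 2.74 to 8.70 on chromosome 18, higher on chromosome 19 in 0 of 6 comparisons. Such a ratio cannot exceed the inverse of the covered share. Regions of replicates 1 and 3 covered 41.1% and 44.0% of chromosome 19, which puts the ceiling below every value of chromosome 18. For comparisons with regions of these replicates the direction was thus fixed in advance by coverage.

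Merging common regions over the replicates gave 3701 merged regions on chromosome 19 and 2510 on chromosome 18, counts over the 3 replicates together that have no error of their own. On chromosome 19, 1972 of them (53.3%) held at least 2 replicates and on chromosome 18 728 (29.0%), beside 34.5% over all chromosomes. All 3 replicates were present in 704 (19.02%) and 80 (3.19%), beside 6.59% over all chromosomes. The merged regions with at least 2 replicates had a density of 44.5 per Mb on chromosome 19 and 9.58 on chromosome 18 and covered 39.4% and 3.61% of the span. Their median width was 6600 and 3400 bases. Replicate 1 alone supplied 1189 merged regions on chromosome 19 and 1220 on chromosome 18, or 32.1% and 48.6%.

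The difference held along the chromosomes and was not made by a few windows. For each 1 Mb window the density of common regions was divided by that replicate's density over all autosomes and averaged over replicates, in windows with at least 0.5 Mb of span. This left out the end of chromosome 18 (0.0168 Mb), where 3, 1 and 0 common regions gave a relative density of 3.74, and 4 windows of chromosome 19 beside the left-out intervals or at its end, at 1.76 to 4.93. The 76 windows of chromosome 18 had a median of 0.425 (0.00895 to 2.04) and the 43 of chromosome 19 a median of 3.203 (0.106 to 4.61). Of the windows of chromosome 19, 35 lay above the highest of chromosome 18 and 1 lay below its median. That 1 window, the lowest of chromosome 19, begins within the gap at the centromere, and this part was counted in its span. No window of 76 on chromosome 18 reached the lower quartile of chromosome 19, which was 2.22. Relative to its mean, chromosome 18 was the more uneven, with a coefficient of variation over windows of 84.8% against 40.5%. The range itself was wider on chromosome 19, the only one of the pair with intervals left out.

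Both arms followed their chromosome. The relative density was 3.37 ± 0.912 (SD, n = 3) on the short arm of chromosome 19 and 2.47 ± 0.777 on its long arm, and the short arm was the denser in each replicate. On chromosome 18 it was 0.757 ± 0.111 on the short arm and 0.617 ± 0.0643 on the long arm, with replicate 2 at 0.636 and 0.646 in the opposite order. The order of windows was similar between replicates, with Spearman's rho of 0.75 to 0.90 over the 76 windows of chromosome 18 and 0.69 to 0.77 over the 43 of chromosome 19, where the windows of a chromosome share libraries and neighbours.

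Windows were ranked by this mean relative density. The fullest windows of chromosome 18 were chr18:19000001-20000000, with 78, 12 and 57 common regions, and chr18:12000001-13000000, with 81, 14 and 45. On chromosome 19 they were chr19:1000001-2000000, with 112, 73 and 61, and chr19:4000001-5000000, with 119, 58 and 78. The first of these led by replicate 2, and the second held more common regions in replicates 1 and 3. The fullest of chromosome 18 held fewer common regions than these in every replicate. The emptiest of chromosome 18, chr18:14000001-15000000 and chr18:41000001-42000000, had 1 and 5 common regions in replicate 1 and 0 in replicates 2 and 3. A neighbour of the first, chr18:15000001-16000000, held 1, 1 and 0 and ranked just above the second. The gap without calls begins in this neighbour, at 15407793, and the part within it was counted as span. The emptiest windows held summits all the same, 12, 6 and 5 in chr18:14000001-15000000 and 18, 5 and 16 in chr18:41000001-42000000. The emptiest of chromosome 19 were the pair beside its centromere, chr19:27000001-28000000 with 2, 2 and 1 common regions and chr19:28000001-29000000 with 14, 7 and 3. Up to 27731800 the first of this pair lies in the gap without calls, also counted as span. Without that part it would fall short of the minimum of 0.5 Mb.

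Windows of both chromosomes were also pooled and split in 3 classes by the number of common regions of all replicates per Mb. The densest class held 35 windows of chromosome 19 and 5 of chromosome 18, the middle class 6 and 33, and the sparsest 2 and 38, so the chromosomes met in few windows. In the middle class 37.1%, 58.67% and 54.2% of common regions were shared on chromosome 19 and 39.1%, 74.2% and 51.2% on chromosome 18, higher on chromosome 19 in replicate 3 and lower in the others. In the densest class the shares were 72.4%, 93.1% and 82.8% against 53.3%, 87.9% and 62.9%, higher on chromosome 19 in each replicate. Density was not matched within that class, whose windows held 140 to 255 common regions of all replicates per Mb on chromosome 19 and 114 to 147 on chromosome 18. In the middle class these ranges were 36 to 110 and 33 to 112. The middle class rests on 6 windows of chromosome 19 and the densest on 5 of chromosome 18.

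The widest merged regions are named as examples. They were chosen by width among 704 regions found in all 3 replicates on chromosome 19 and 80 on chromosome 18. Their extent is therefore no separate result. The widest region found in all 3 replicates on chromosome 19 was chr19:1207201-1281600, which spanned 74400 bases after merging 5, 5 and 4 common regions and held 13, 6 and 6 summits. On chromosome 18 it was chr18:19743801-19758200, with 14400 bases, 3, 2 and 1 common regions and 3, 2 and 2 summits. Both lie in the window that ranked highest on their chromosome.

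Regions found in all 3 replicates were ranked by the mean percentile of their highest summit score. On chromosome 19 the next 2 after the first were chr19:13890201-13927800, 37600 bases wide with 8, 6 and 3 summits, and chr19:47165801-47201600, 35800 bases wide with 7, 4 and 6. On chromosome 18 they were chr18:44697801-44706600, 8800 bases wide with 3, 2 and 2 summits, and chr18:23669201-23673800, 4600 bases wide with 1 summit in each replicate. The first on both chromosomes lay beside the centromere. On chromosome 19 it was chr19:27731801-27740200, which begins where the stretch without calls ends, and its highest summit had a score (−log10 of the q-value) of 181, 407 and 459. On chromosome 18 it was chr18:18517001-18520400, 6000 bases from the end of that stretch, with 28.9, 72.7 and 86.6. Gene names were not assigned to any of them.

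By the means of the replicates, chromosome 19 had the highest density of common regions among 22 autosomes and chromosome 18 the 20th. The median over the other 20 was 22.01 per Mb. Here and below, chromosome 19 was ranked without the zinc finger intervals and the other autosomes whole. Chromosome 19 also ranked first in the density of EPIC2 regions and summits, in the covered share, in median width and in the share of common regions found again. It did not lead in every replicate, being 2nd in summit density in replicate 3, 2nd in covered share and 3rd in width in replicate 2, and 2nd in sharing in replicates 1 and 2. Chromosome 18 was 20th in the densities and in the covered share and 19th in sharing, and its width was level with that of chromosomes 2, 3 and 5. Chromosome 17 came nearest to chromosome 19, with 53.6 ± 28.2 common regions per Mb (SD, n = 3) against 58.3 ± 28.3, and the order of these 2 turned in replicate 3. The lowest was chromosome 4, with 12.5 ± 8.46 against 14.8 ± 10.3 on chromosome 18. With the zinc finger intervals kept, the mean log2 ratio of chromosome 19 over 18 fell from 2.12 to 1.94 for common regions. It fell from 2.24 to 2.05 for EPIC2 regions and from 1.21 to 1.11 for summits. Whether chromosome 19 would then still rank above chromosome 17 in these densities was not tested.

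The pair stood closer in summits outside EPIC2 regions. By the mean of the replicates chromosome 19 ranked 15th and chromosome 18 18th in their density, which ran from 26.3 per Mb on chromosome 21 to 34.2 on chromosome 22. Chromosome 19 changed place between replicates, from 22nd in replicate 1 and 21st in replicate 3 to the highest of all in replicate 2. Over the autosomes the coefficient of variation of the means was 6.52%, against 26.8% for all summits and 48.5% for common regions. The share of summits with a summit of another replicate within 250 bases varied as little, with a coefficient of 4.51%, with chromosome 19 in 7th place and chromosome 18 in 19th. In this share chromosome 19 ranked 4th in replicates 1 and 2 and 22nd, the lowest of all, in replicate 3.

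**Figure D5:**
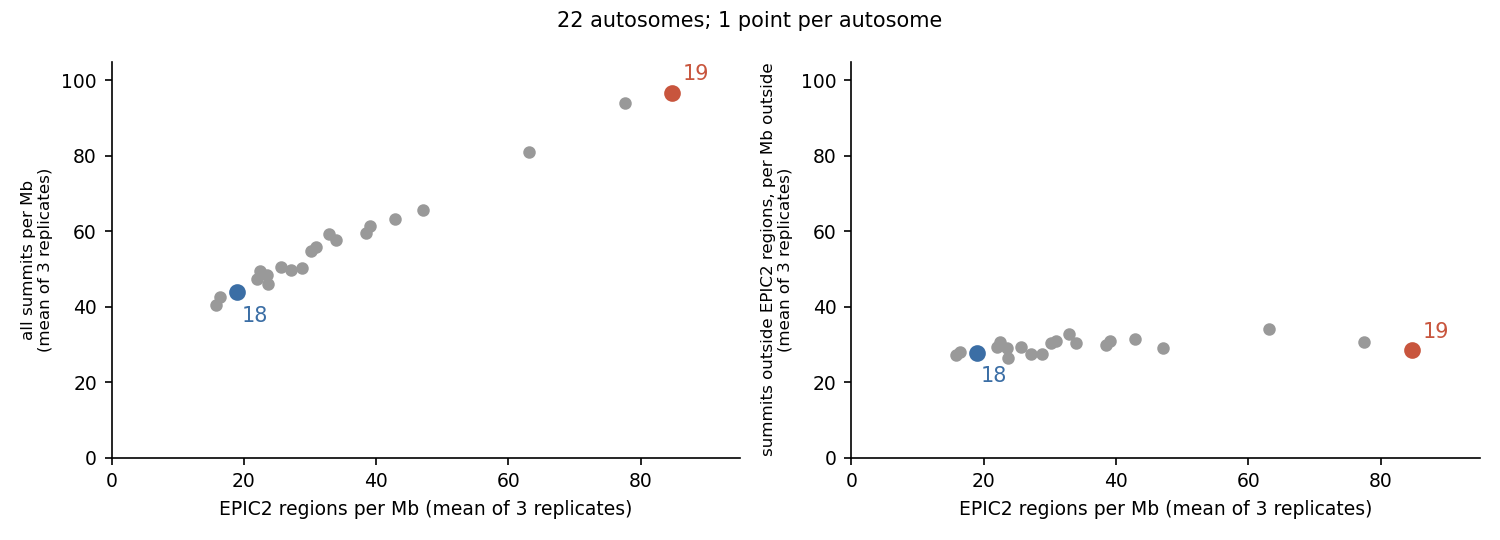
Each point is 1 of 22 autosomes, with EPIC2 regions per Mb on the horizontal axis and, on the vertical axes, all summits per Mb (left) and summits outside EPIC2 regions per Mb outside them (right), all as means of 3 replicates; chromosome 18 is blue and chromosome 19 red. At left chromosome 18 stands at 43.8 summits per Mb and chromosome 19 at 96.7, and at right all points stay between 26.3 and 34.2. The zinc finger intervals were left out of chromosome 19.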

How the data were processed

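SNS-seq was done on untreated HCT116 cells in 3 replicates, per the labels. Reads were aligned by the authors with Bowtie2 (2.3.4.2) against hg19 and freed of duplicates with Picard (2.18.17), and they called each replicate separately with MACS2 (2.1.0.20151222, q of 0.1) and EPIC2 (FDR of 0.1), versions being those in the submitters' processing notes. Which control served for calling is not given in the sources read. The EPIC2 lists as deposited hold positions and a score whose kind is not stated, so it was used to rank regions within a replicate only. The score in the deposited MACS2 lists was taken to be the −log10 q-value. The lists carry no read counts, so depth and counting intervals could not be given.

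Calls that touched a zinc finger interval were left out, as were distances across these intervals or the centromere. Each replicate gave 1 ratio or difference of chromosome 19 against 18, described by mean and SD and by an exact sign-flip permutation test. Ranks among autosomes and classes of width and density are descriptions. Regions named are the 3 with the highest mean summit percentile and the widest among those in all 3 replicates, and windows named are the 2 fullest and 2 emptiest per chromosome. Windows were ranked by relative density with at least 0.5 Mb of span. Chromosomes 2 to 5, 17, 21 and 22 and the window chr18:15000001-16000000 were named after their values were seen. The chromosomes, intervals and measures were chosen with earlier results of these data known.

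Alternatives covered the intervals, the span, the centromere flank, a q-value of 0.01, EPIC2 score filters, other units and each replicate left out. Interval functions were tested on simulated regions. The GRCh38 reference at hand ends chromosome 19 at 58617616, before the last call (59095400), so its sequence and annotation were not used. Python 3.11.15, numpy 2.4.6, pandas 2.3.3 and matplotlib 3.10.9 were used.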

Additional observations from a re-analysis of the deposited data

How the results depend on the processing

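For 8 results, 71 values were computed under alternatives, and 59 of them moved by less than 1 SD between replicates and kept their direction. These include every value with the zinc finger intervals kept, with the span from first to last call, without 1 Mb beside the centromere gap and with summits of a q-value of 0.01 or less. Apart from sharing, leaving out 1 of 3 replicates cannot move a mean by 1 SD. Those values were within this limit by construction. Another 11 moved by more without a change of direction and 1 was reversed; the causes were not tested beyond what each alternative changes by construction. The upper 50% of EPIC2 scores moved the log2 ratio of chromosome 19 over 18 to 2.82 for the density of common regions (from 2.12) and to 2.95 for that of EPIC2 regions (from 2.24), and the difference in sharing to 33.7 percentage points (from 26.0). Equal numbers of EPIC2 regions gave 2.79, 2.90 and 34.6 in the same order. As EPIC2 scores were higher on chromosome 19, both filters keep a larger share of its regions and raise the density ratios by construction. Centre-to-centre distances gave a log2 ratio of spacing of -1.29 (from -1.99). The difference in sharing was 6.72 points with a reciprocal overlap of 50%, 1.92 by summits within 250 bases and 12.7 as the mean over width classes. Summits per kb of region reversed the log2 ratio of summits per region, from 0.19 to -0.72.

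Without 1 replicate at a time, the log2 ratio ran from 1.89 to 2.29 for the density of common regions, from 2.098 to 2.37 for EPIC2 regions and from 1.01 to 1.40 for summits. It ran from 0.55 to 0.81 for width, from -2.22 to -1.68 for spacing and from 0.14 to 0.22 for summits per region. Sharing ran from 17.9 points without replicate 3 to 30.6 without replicate 1. The share of EPIC2 regions with a summit differed by -10.7 to -4.05 points, and the -10.7 without replicate 2 had an SD of 0.807 and was larger than its spread, unlike the value with all 3. Replicate 2 was the only one in which this share was higher on chromosome 19, so leaving it out narrows the spread by construction. Depth is unknown and its effect could not be measured.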
